A study of Mus musculus with 9 samples.

Results

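A set of 230 of the 45281 probes on a mouse bead array was bright or near background in different mice of the same diet, and the brightest genes it names are those of developing sperm. Epididymal fat, the fat pad that lies beside the testis and epididymis of a male mouse, was measured in 9 C57BL6/J mice aged 16 weeks. From weaning, 3 of the mice ate normal diet (ND) and the others high fat food. Of the latter, 3 drank plain water as far as the labels say (HFD) and 3 drank water with 2% mannose, a simple sugar (HFDM). Each mouse gave 1 array, named here by diet and replicate number, so that ND2 is replicate 2 of the normal diet. The labels name no transgene or other agent, and they do not say how the fat pad was trimmed from the organs beside it. The members were chosen by measured values. Each intensity below 0 was set to 0, 16 was added and log2 was taken, with no normalization between arrays, so that 4 is the floor of this scale. A probe was kept when its lowest value over ND2, HFD3, HFDM1 and HFDM3, called the high arrays, was at least 2.5 (5.66-fold) above its highest value over ND1, HFD1, HFD2 and HFDM2, called the low arrays. ND3 took no part in the choice.

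In the testis, germ cells divide as spermatogonia, pass through meiosis as spermatocytes and then remodel as haploid spermatids. Spermatids replace most histones of their DNA with transition proteins and then protamines, and build an acrosome for entering the egg and a tail powered largely by glycolysis. Many of these steps use genes or gene copies with little activity outside the testis. Sertoli cells nurse the germ cells inside the tubules, and Leydig cells between the tubules make testosterone.

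A gene symbol was paired with 203 of the 230 member probes, which covered 182 genes, and the other 27 were unnamed. Protamine 1 (Prm1), which packs sperm DNA, was the brightest member, and the testis form of lactate dehydrogenase (Ldhc), a glycolytic enzyme of sperm, had the widest separation. The first Prm1 probe read 9.42, 14.31 and 13.25 on ND1, ND2 and ND3, 7.72, 7.06 and 14.24 on HFD1, HFD2 and HFD3, and 15.66, 8.28 and 14.58 on HFDM1, HFDM2 and HFDM3 (log2 intensity). The brightest Ldhc probe read 6.16, 13.32 and 11.05 on the ND arrays, 4.18, 4.5 and 12.53 on the HFD arrays, and 15.07, 6.06 and 13.08 on the HFDM arrays. The rule required each diet to hold both a low and a high mouse for every member, so the ranges of the diets had to overlap. Just inside the threshold, the separation was 2.51 for Kctd19, Spata31d1a and an unnamed probe. Just outside it was 2.49 for Spata32 and Gm5941 and 2.48 for an unnamed probe.

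**Figure D1:**
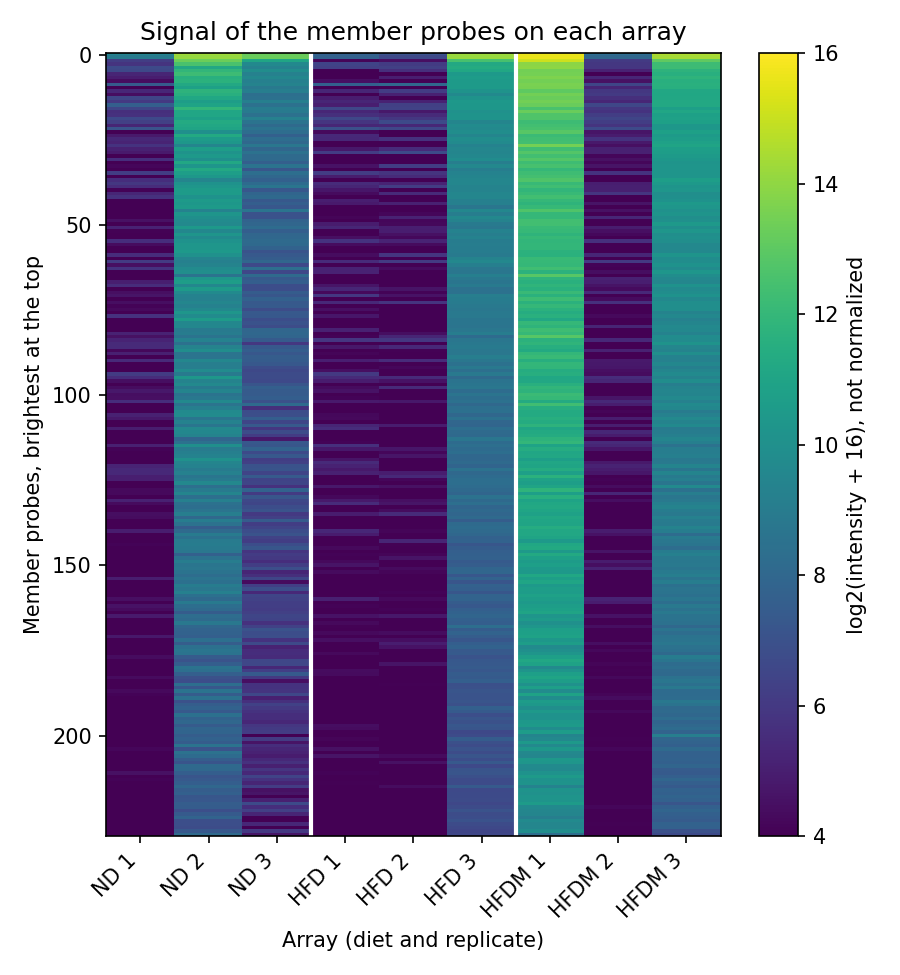
Heat map of log2(intensity + 16), not normalized, for the 230 member probes (rows, brightest at the top) on the 9 arrays (columns, white lines between diets). ND2, HFD3, HFDM1 and HFDM3 are bright and ND1, HFD1, HFD2 and HFDM2 are near the floor of 4 because the rule asked for it, while ND3, which it did not use, lies between.

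On each high array all 230 members were detected at a deposited detection p under 0.05. On ND1, HFD1, HFD2 and HFDM2 the number detected was 21, 15, 20 and 23, and 195 members were detected on none of these 4. The median member stood at 9.02 on ND2, 8.23 on HFD3, 11.33 on HFDM1 and 9.21 on HFDM3, and at the floor of 4 on every low array. HFDM1 was the brightest array for all 230 members. The members held 2.71% of the summed positive signal of HFDM1, 0.875% of ND2, 0.767% of HFDM3 and 0.57% of HFD3, against at most 0.0112% on a low array. The rule fixed which arrays were high, so these figures describe the set and were not tested. A lower signal from fewer cells of a type cannot be told apart from less RNA per cell in such bulk tissue.

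ND3 is the measurement that the choice left free. It lay above every low array in 225 of 230 members, which is 97.8% (exact 95% interval 95% to 99.3%, counting error only, although members share arrays and are not independent). Among the other probes detected on at least 3 arrays the same held for 2823 of 20542, or 13.7%. The median member stood at 6.83 on ND3, where 195 were detected. ND3 was the fifth brightest array in 223 members, and only 2 members were brighter there than on their lowest high array. On a scale from 0 at the mean of the low arrays to 1 at the mean of the high arrays, the median member lay at 0.49 on ND3 (SD over members 0.15). With the arrays turned round, no probe separated the low arrays above the high ones by 1 or more, and the largest such separation was 0.92.

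Promoter sequences of the member genes were described beside those of other genes. The members moved together over the 8 arrays of the rule because it asked for this, and why the mice differed was not tested. RefSeq windows (GRCm38.p6) from 250 bases before to 50 bases after a gene's start were found for 142 of the 182 genes, taking the first window listed for each gene. The cAMP response element, TGACGTCA, is bound by the CREB family, to which the spermatid activator CREM belongs. It stood in 2.11% of the member promoters, 1.88% of all 27025 windows and 3.04% of windows of genes detected on at least 3 arrays. The related 8-base word TGACATCA stood on either strand in 32 of the 142 member promoters (22.5%), against 3.76% of all windows and 2.36% of the 9400 windows of genes detected on at least 3 arrays. The 32 count Gm20815 and Gm20867 separately, although the word and the 8 bases on each side of it are the same in both. A further word, TGAGGTCA, stood in 10.6% of member promoters, 2.11% of all windows and 1.6% of those of detected genes. For the TATA box letters TATAAA the shares were 11.3%, 14.2% and 8.43%. Members thus lay below all windows but above those of detected genes for TATAAA. In all, 18 words or patterns were counted, some of which overlap, and TGACATCA and TGAGGTCA were singled out after their shares were seen. No test was run, and a match is a match of letters, not a binding site. Windows of 3 genes whose values are given below are shown whole, 5′ to 3′ along the gene, because Tnp1 stands for chromatin packing, Gapdhs for glycolysis and Akap4 for the tail. The capitals mark TGACATCA or its reverse complement.
Tnp1, chr1:73015850-73016149, minus strand: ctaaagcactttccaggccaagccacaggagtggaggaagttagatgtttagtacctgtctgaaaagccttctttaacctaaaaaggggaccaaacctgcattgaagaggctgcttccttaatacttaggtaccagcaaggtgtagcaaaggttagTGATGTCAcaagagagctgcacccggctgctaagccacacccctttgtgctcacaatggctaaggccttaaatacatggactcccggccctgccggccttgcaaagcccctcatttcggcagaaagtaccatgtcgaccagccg
Gapdhs, chr7:30743632-30743931, minus strand: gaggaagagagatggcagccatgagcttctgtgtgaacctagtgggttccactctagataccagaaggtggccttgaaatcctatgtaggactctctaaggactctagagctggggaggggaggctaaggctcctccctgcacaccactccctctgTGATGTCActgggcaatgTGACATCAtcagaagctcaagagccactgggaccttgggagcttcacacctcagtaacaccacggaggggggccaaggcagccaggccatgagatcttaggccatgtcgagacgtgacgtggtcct
Akap4, chrX:7067265-7067564, plus strand: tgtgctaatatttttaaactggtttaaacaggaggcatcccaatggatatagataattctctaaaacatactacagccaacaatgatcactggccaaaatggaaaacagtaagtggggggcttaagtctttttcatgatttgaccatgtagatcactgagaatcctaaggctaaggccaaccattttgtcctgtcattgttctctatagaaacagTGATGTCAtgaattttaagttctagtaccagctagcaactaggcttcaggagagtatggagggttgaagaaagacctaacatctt

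The centre of the word was 90 bases before the start in Tnp1, 90 and 72 bases before it in Gapdhs and 31 bases before it in Akap4. The member promoters held 36 matches in all, with a median centre 43 bases before the start. Of these, 29 (80.6%) had their centre within the 100 bases before the start. In all other windows 578 of 1045 matches (55.3%) lay within the same 100 bases, and the median over the 1045 was 56 bases before the start. The word with its flanks is shown for 9 further member genes, among them genes of the acrosome (Actl7a, Spaca7), the tail (Akap3, Smcp, Cfap97d1) and glycolysis (Pgam2), written along the strand that reads TGACATCA (capitals). Outside those 100 bases lie the centres in Smcp (28 bases after the start), the second Akap3 match (3 after it) and Pgam2 (221 before it).
Actl7a, chr4:56743374-56743397, minus strand: cccaacagTGACATCActgattgt
Actl7b, chr4:56741446-56741469, minus strand: attcctggTGACATCAcaacccaa
Akap3, chr6:126853068-126853091, minus strand: gcagctagTGACATCActgtttct
Akap3, chr6:126853089-126853112, minus strand: ctagggagTGACATCAgaattgca
Gsg1, chr6:135254356-135254379, minus strand: tgctactgTGACATCAcagaatga
Smcp, chr3:92589034-92589057, plus strand: ctcttttaTGACATCAtaatactc
Spaca7, chr8:12572994-12573017, minus strand: gggacctgTGACATCAccacaggg
Txndc8, chr4:58009135-58009158, plus strand: cttttctaTGACATCAttggatgg
Cfap97d1, chr11:101987002-101987025, minus strand: cccagttaTGACATCAgggacaag
Pgam2, chr11:5804006-5804029, plus strand: gacactctTGACATCAgcagcttt

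**Figure D2:**
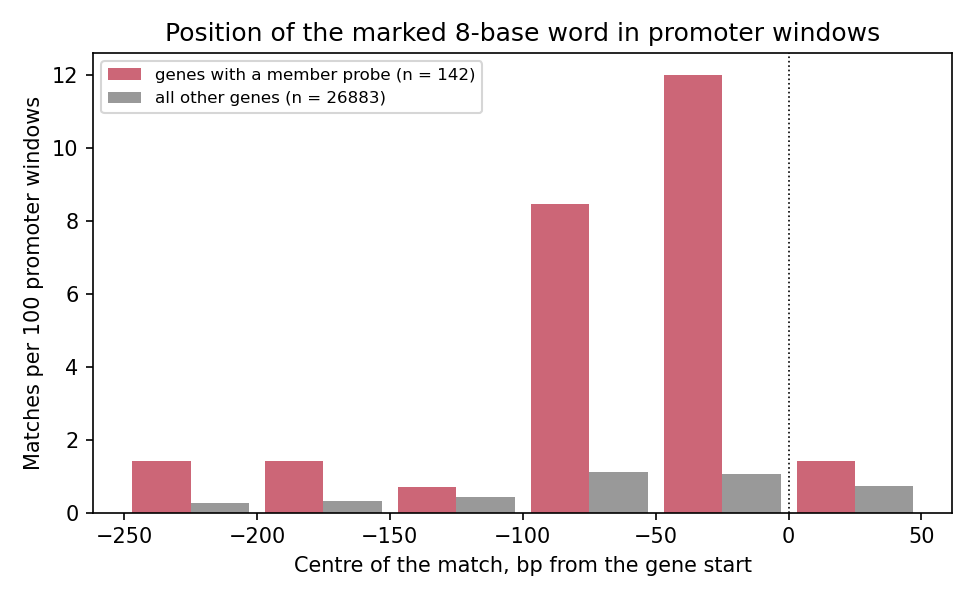
Matches of TGACATCA on either strand per 100 promoter windows (y axis), in bins of 50 bp by distance from the gene start (x axis), for 142 genes with a member probe (red) and 26883 other genes (grey). The tallest red bars, 12.0 and 8.45 matches per 100 windows, are those of the 50 bases before the start and the 50 before these, where the grey bars reach 1.05 and 1.1.

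The roles below were assigned from textbook knowledge after the values had been seen, to 62 genes read by 72 member probes. Chromatin packing took 8 genes with 10 probes. Transition protein 1 (Tnp1), which follows the histones off sperm DNA, read 6.59, 11.88 and 9.89 on the ND arrays, 4.0, 5.6 and 11.15 on the HFD arrays and 13.45, 5.17 and 11.76 on the HFDM arrays. Transition protein 2 (Tnp2) was fainter, at 8.0, 8.34, 10.32 and 8.07 on ND2, HFD3, HFDM1 and HFDM3 and at most 4.43 on the low arrays. Hils1, a linker histone-like protein of spermatids, read 9.31, 9.55, 12.69 and 10.05 on the high arrays, at most 4.54 on the low ones and 8.62 on ND3. In all of these ND3 fell between its group mates. The histone variant H2bl1 was at the floor on all low arrays and at 7.55 on ND3, and H2ap was at the floor on the same 4 and at 6.17 on ND3. The 2 probes of H2al1e read 8.16 and 5.92 on ND3, but this gene belongs to a family of near copies that a probe may not separate. Both Prm1 probes were detected on all 9 arrays, down to 7.06 and 6.67 on HFD2.

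The sperm head and the perinuclear theca, the shell between nucleus and acrosome, took 6 genes with 8 probes. Fabp9, a lipid-binding protein of the perforatorium, was detected on all 9 arrays and read 6.68, 11.2 and 9.34 on the ND arrays, 6.29, 6.29 and 11.39 on the HFD arrays and 13.97, 5.91 and 12.23 on the HFDM arrays. Its lowest high array was still 4.52 above its highest low one. Cypt3, a cysteine-rich theca protein, had 3 member probes that read 11.59, 11.67 and 12.23 on HFDM1, and Cypt4 and Cypt12 read 12.87 and 12.11 there. The Cypt genes are a multigene family, so these probes may read one another's transcripts. The actin-related Actrt2 and the capping protein Capza3, both of spermatids, read 12.3 and 11.77 on HFDM1 and 8.68 and 7.46 on ND3.

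The sperm tail took 14 genes with 17 probes. Odf1, a main protein of the outer dense fibres, read 5.62, 11.09 and 8.92 on the ND arrays, 5.29, 4.76 and 10.05 on the HFD arrays and 13.24, 5.74 and 11.08 on the HFDM arrays. Akap4, the main scaffold of the fibrous sheath, read 10.59, 8.67, 11.21 and 9.29 on ND2, HFD3, HFDM1 and HFDM3 by its brighter probe, 6.83 on ND3, and 4.0 on every low array. Akap4 was therefore nearly as bright on ND2 as on HFDM1. Smcp, of the mitochondrial capsule of the midpiece, lay between 10.15 and 13.25 on the high arrays and at 8.46 on ND3. Catsperz, a subunit of the sperm calcium channel, lay between 10.56 and 13.56 on the high arrays and was at the floor on 3 of the 4 low ones. The dynein Dnah8, the fibrous sheath proteins Akap3 and Cabyr, the outer dense fibre genes Odf2 and Odf4 and the antizyme Oaz3 were high on the same 4 arrays, since the rule asked for it.

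The acrosome and egg binding took 14 genes with 1 probe each. The sperm surface metalloprotease-like proteins Adam3, Adam5 and Adam32 read 10.59, 9.71 and 10.57 on ND2 and 11.92, 11.35 and 12.34 on HFDM1. Clgn, the chaperone that folds such surface proteins in the testis, read 9.8 on ND2 and 11.43 on HFDM1. Acrv1, a protein of the acrosomal matrix, read 8.27, 7.25, 11.17 and 9.12 on ND2, HFD3, HFDM1 and HFDM3, 5.63 on ND3 and 4.0 on every low array. Plcz1, the phospholipase with which sperm activate the egg, and Zpbp2, which binds the egg coat, were also at the floor on all low arrays. Zpbp2 was at the floor on ND3 too, where it was 1 of 5 members not above the low arrays, and Plcz1 stood at 5.17 there.

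Energy enzymes of germ cells took 8 genes with 11 probes. Pgk2, the phosphoglycerate kinase of late germ cells, read 4.0, 11.18 and 7.63 on the ND arrays, 4.0, 4.02 and 9.15 on the HFD arrays and 12.26, 4.23 and 10.2 on the HFDM arrays. The brighter probe of Gapdhs, the sperm glyceraldehyde-3-phosphate dehydrogenase, lay between 9.78 and 12.39 on the high arrays, between 5.26 and 5.79 on the low ones and at 8.17 on ND3. The order of the 5 brightest arrays was the same for both, as it was for members of other roles such as Clgn and Papolb. Pgam2, a further glycolytic member, read higher on HFDM3 (10.1) than on ND2 (9.32). Oxct2a and Oxct2b, germ cell enzymes of ketone body use, read 11.94 and 11.93 on HFDM1, and a probe for either of these near copies may also bind the other's transcript. Cox8c, a testis subunit of the respiratory chain, read 12.71 on HFDM1.

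RNA regulation of germ cells took 6 genes and meiosis 3. Piwil1, which binds piRNAs, read 9.14, 8.46, 11.95 and 9.54 on ND2, HFD3, HFDM1 and HFDM3, 7.3 on ND3 and at most 4.78 on the low arrays. A second Piwil1 probe, which was no member, was detected on all 9 arrays, with a separation of 1.6. Tdrd6 of the chromatoid body, the helicase Ddx25, the poly(A) polymerase Papolb and the poly(A)-binding Pabpc2 read between 10.72 and 12.3 on HFDM1. For meiosis, Syce3 of the synaptonemal complex read 10.99, cyclin A1 (Ccna1) 8.32 and Kctd19 10.86 on that array. Ccna1 and Kctd19 lay close to the threshold, with separations of 2.54 and 2.51.

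Markers of the somatic cells of the testis were 3 of the members. Of the 13 Sertoli and 12 Leydig probes of the lists below, 9 and 4 were detected on any array. Members included, 5 and 3 probes were brighter on every high array than on every low one. Insl3, the peptide hormone of Leydig cells, read 4.0, 7.54 and 4.0 on the ND arrays, 4.0, 4.0 and 6.76 on the HFD arrays and 9.42, 4.0 and 9.11 on the HFDM arrays. Cst9, a cystatin of Sertoli cells, read 4.0, 7.93 and 4.78 on the ND arrays, 4.0, 4.0 and 8.7 on the HFD arrays and 11.74, 4.0 and 9.48 on the HFDM arrays. Insl3 was thus at the floor on ND3, where sperm genes were detected, and Cst9 was close to it. Insl3 was a faint member, with a mean of 8.21 over the high arrays. Of germ cell members about as faint, Zpbp2 (7.83) was at the floor on ND3 too, while Prm3 (8.36) read 6.33 there. Defb19, a defensin of Sertoli cells, read 5.94 on ND3, 5.41 on ND1 and 11.87 on HFDM1. A second Insl3 probe, which was no member, was unlike the first in that it was detected on all 9 arrays, between 7.64 and 11.68. This second probe was also brighter on every high array than on every low one, with a smaller separation of 1.16. On the scale of ND3 between low and high arrays the 3 somatic probes had a median of 0.14, against 0.61 for the sperm head, 0.58 for chromatin packing, 0.54 for energy enzymes, 0.49 for RNA regulation, 0.48 for the tail, 0.44 for the acrosome and 0.29 for meiosis. These medians rest on 3 to 17 probes each, make no allowance for how bright the probes were and were not tested.

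**Figure D3:**
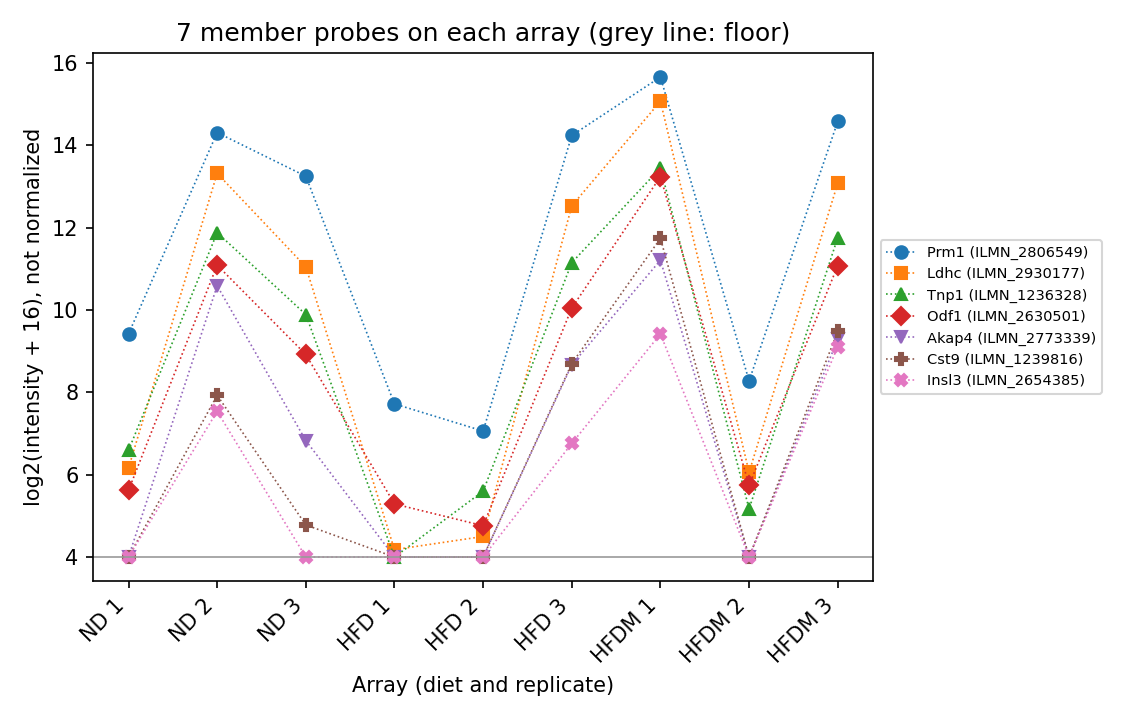
Log2(intensity + 16), not normalized (y axis), of 7 member probes on each of the 9 arrays (x axis, ordered by diet), 1 symbol per probe, with the grey line at the floor of 4. Dotted lines join the points of a probe only to guide the eye. On ND3 Prm1 and Ldhc, the brightest genes of the set, read 13.25 and 11.05, while the fainter Insl3 is at 4.0 and Cst9 at 4.78.

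Of the remaining bright members, Gsg1, a germ cell gene, read 12.54, 11.23, 13.92 and 12.23 on ND2, HFD3, HFDM1 and HFDM3, and its 2 probes had separations of 4.82 and 4.1. Cabs1, a calcium-binding spermatid protein, was at 5.23 on ND1 and at the floor on the other low arrays, against 10.45 to 13.5 on the high ones. Tulp2, a tubby-like gene of the testis, was detected on all 9 arrays and reached 8.0 on HFD2, which left a separation of 2.53. In all, 19 genes had at least 2 member probes, and Ldhc and Cypt3 had 3. Member genes had 73 further probes outside the set. Of all 73, 36 were brighter on every high array than on every low one. Among the 39 detected on at least 3 arrays 30 were, against 3.51% of all detected probes outside the set. These further probes read member genes on the arrays that the rule used, so the counts partly restate the choice. Of the 203 members with a chromosome 9 were on the X and 2 on the Y. The X share was 4.43%, against 3.53% of all placed probes and 2.84% of those detected on at least 3 arrays. No such share was counted for the Y. The 2 Y-linked probes read Gm20815 and Gm20867, which have near copies on that chromosome.

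The members did not keep one ratio between mice. HFDM1 exceeded HFDM3 by a median of 2.04 on the log2 scale (SD over members 0.42) and in all 230 members. ND2 exceeded HFD3 by a median of 0.78 (SD 0.63), with members from -0.8 to 2.2. HFDM3 and ND2 differed by a median of 0.13 (SD 0.68), 136 members being higher on HFDM3, and this median turned to -0.06 on normalized values. Probes of 1 gene gave like differences between ND2 and HFD3: 23 pairs differed from each other by a median of 0.29, against 0.62 for pairs of probes of different genes. Those figures come from single arrays, so mouse and array cannot be told apart.

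The difference between ND2 and HFD3 is given by role as a description of these 2 arrays. Its median was 0.09 for the 10 chromatin probes and 0.04 for the 8 head probes, but 0.82 for the tail, 0.99 for the acrosome and egg binding and 1.22 each for energy enzymes and RNA regulation. For the 3 meiosis probes it was 1.17, from -0.41 to 1.61, and for the 3 somatic probes -0.34. The genes furthest above on ND2 included Pabpc2 at 2.15, Akap4 at 2.08 and 1.92 by its probes, Pgk2 at 2.04 and Plcz1 at 1.75. Those brighter on HFD3 included Spata45 at -0.8, Cst9 at -0.77, Tex43 at -0.68 and Cypt4 at -0.62. Within each role the values overlapped with those of the others, and no test was run over single arrays.

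**Figure D4:**
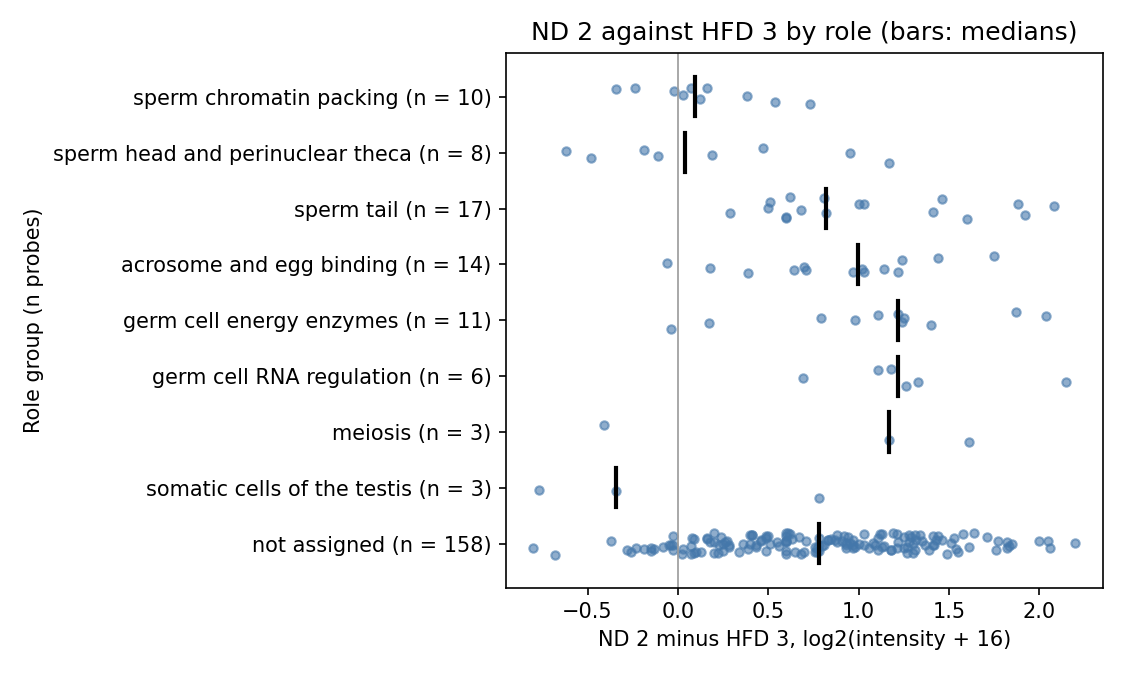
Difference between ND2 and HFD3 in log2(intensity + 16) (x axis) for each member probe (blue points), grouped by role (y axis, number of probes in brackets), with black bars at the medians. The chromatin and head probes lie around 0, with medians of 0.09 and 0.04, and the energy and RNA regulation probes around 1.22, with overlap between all groups.

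Marker lists showed which other signals ran with the set. Of 56 probes for sperm and spermatids 26 were members, 45, 36, 46 and 37 were detected on ND2, HFD3, HFDM1 and HFDM3, 30 on ND3 and 9 to 15 on the low arrays. Their summed signal ran from 2190 to 89800 in ND, 1380 to 60900 in HFD and 1710 to 266000 in HFDM. The members among them were selected to be high on those arrays, so these values partly restate the rule. Of the 30 probes on the list that were no members, 19, 10, 20 and 11 were detected on ND2, HFD3, HFDM1 and HFDM3, 6 on ND3 and 3 to 5 on the low arrays. Lists for testis cells were chosen after values had been seen. Of their probes, 4 of 18 for meiotic spermatocytes, 2 of 13 for Sertoli cells, 1 of 12 for Leydig cells and 0 of 12 for spermatogonia were members. In the same order 10, 9, 4 and 7 probes were detected on any array, and 10, 5, 3 and 2 probes, members included, were brighter on every high array than on every low one. The log2 summed signal of the Sertoli list was 12.51 on the low array ND1. It was 11.91 on ND2, 11.2 on HFD3, 12.34 on HFDM3 and 13.75 on HFDM1. The median log2 value of the Sertoli probes detected on any array was 6.82 to 8.78 on the high arrays and 4.48 to 5.41 on the low ones. The log2 summed signal of the Leydig list was 10.36 to 12.29 on the high arrays, 8.03 to 8.92 on the low ones and 8.84 on ND3. Both lists hold members, so these values partly restate the rule. Cyp17a1, the steroid enzyme of Leydig cells, was no member but had a separation of 2.03. Adipocyte markers were present throughout: none of 37 probes was a member, 31 to 35 were detected on every array, and adiponectin (Adipoq) lay between 15.14 and 15.77. Their summed signal was 476000 to 500000 in ND, 382000 to 520000 in HFD and 487000 to 506000 in HFDM. None of the 63 probes for epididymal secreted proteins, the 16 for seminal vesicle, prostate and vas deferens or the 29 for motile cilia was a member. Beta-defensins had 2 members among 50 probes, Defb19 and Defb33. The part of these other cells in the result was not tested.

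**Figure D5:**
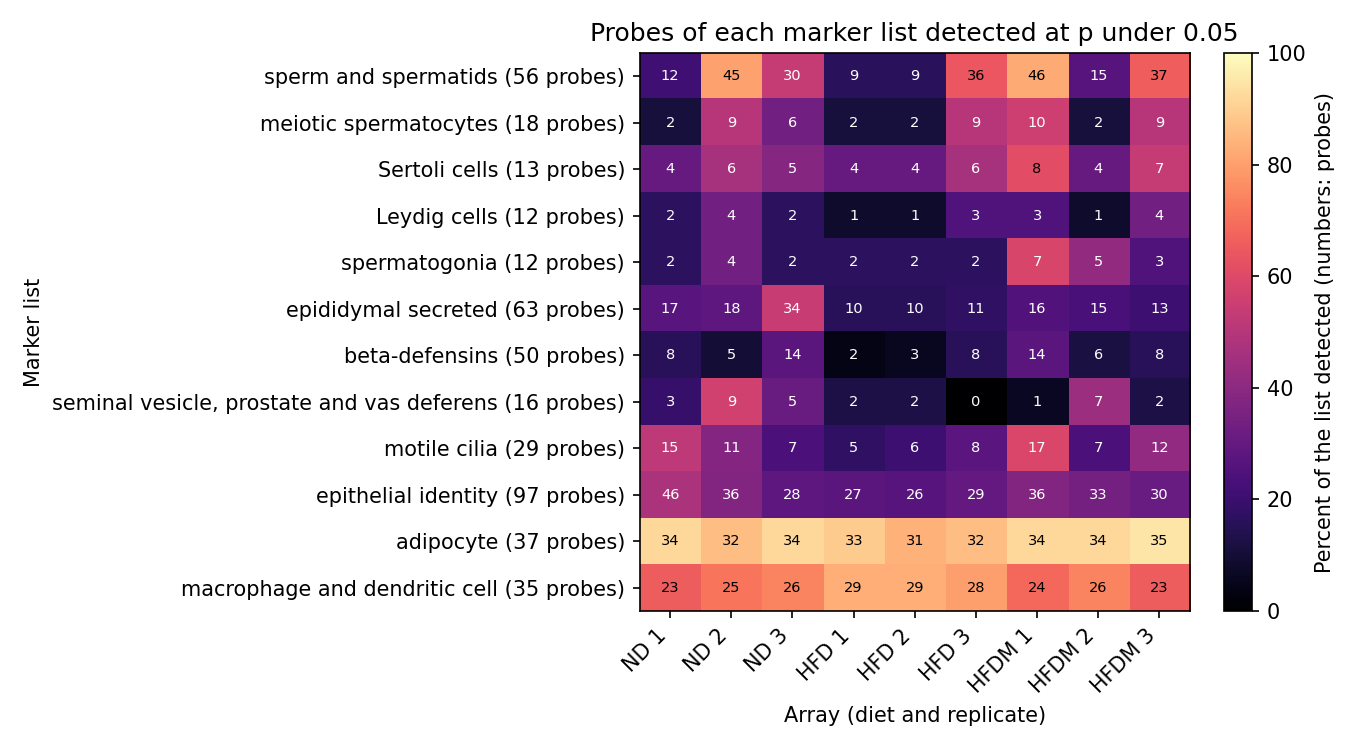
Number of probes detected at p under 0.05 (printed in each cell) and their percent of the list (colour) for 12 marker lists (rows) on the 9 arrays (columns, by diet). Of the sperm and spermatid probes, 26 of which are members selected for it, 36 to 46 are detected on the 4 high arrays, adipocyte probes stay at 31 to 35 of 37 on all arrays, and epididymal secreted probes peak on ND3 with 34 of 63.

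No difference between diets was called for any member. Intensities were normalized for this comparison, and all 230 members passed the filter for low signal, as detection on the high arrays ensured. By limma's moderated test with Benjamini-Hochberg adjustment over 20772 probes, 373 (1.80%) were called between HFD and ND, 163 (0.785%) between HFDM and HFD, 0 (0%) between HFDM and ND and 209 (1.01%) by the F test over the diets. No member was among them, the lowest adjusted p of a member being 0.657, 0.497, 0.953 and 0.614, and none had an unadjusted p under 0.05, against 3149, 2609, 801 and 2569 of all probes. The rule itself put both high and low mice into each diet, so nothing can be read about the members from these counts or from the size and direction of the differences below. Their median residual SD was 2.43 on the log2 scale, against 0.33 over all probes tested.

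The fitted differences are given as a description only, since 1 of 3 ND, 1 of 3 HFD and 2 of 3 HFDM arrays were required to be high. The first Prm1 probe had normalized log2 means of 12.52 ± 2.76 in ND, 9.77 ± 4.13 in HFD and 12.87 ± 3.89 in HFDM (SD, n = 3 mice each). Its difference was -2.75 ± 2.42 for HFD against ND (SE, adjusted p = 0.657 by limma) and 3.1 ± 2.42 for HFDM against HFD (adjusted p = 0.642). Over all members the median difference was -0.79 for HFD against ND, 2.2 for HFDM against HFD and 1.36 for HFDM against ND, where all probes had medians of -0.01, -0.03 and -0.03. These comparisons share their groups, and each is smaller than the spread between mice of 1 diet. Before normalization the mean log2 value over members was 6.87 ± 2.31 in ND mice (SD, n = 3), 5.75 ± 2.28 in HFD mice and 8.4 ± 3.53 in HFDM mice.

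Calls among other probes were also counted with the set taken into account. With the mean of the members entered as a covariate in limma, HFD against ND gave 474 calls, of which 364 were among the 373 made without it. HFDM against HFD gave 75, of which 70 were among the 163. Without the 4 high arrays, an omission chosen after the data were seen, limma made no call in any comparison, while 1975, 1091 and 444 probes had an unadjusted p under 0.05. That fit kept 2, 2 and 1 mice of ND, HFD and HFDM and assumed that the lone HFDM mouse varied like the rest. Omitting some single arrays, low ones among them, also lowered these counts, and the part of the set in them was not tested.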

How the data were processed

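Total RNA of epididymal fat from 9 mice was labelled and read in a single colour on Illumina bead arrays, per the labels. The authors exported signals with GenomeStudio, per the submitters' processing notes, which give no version here. The deposited table holds, per the file headers, bead intensity averaged per probe, with its detection p-value, on every array. Between 27.3% and 33.2% of an array's intensity values were below 0, so background had been subtracted before deposit. A second deposited table of normalized intensity is linear, has a median of 155.4 on every array and correlates at 0.986 with the log2 values computed here on each array. How it was normalized is not stated in the labels or headers, and it served as an alternative.

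Computations used Python 3.11.15, R 4.3.3 and limma 3.58.1. Members were found on unnormalized log2(intensity + 16). For diets, limma's neqc corrected and quantile-normalized the intensities with an offset of 16, and probes with a detection p under 0.05 on at least 3 arrays (20772) were fitted with a mean per diet. The fit and the rule were tested on simulated data. With 3 mice per diet, an exact permutation test could not go below 0.1, and the number of arrays limits the precision. Slide and scan day were not used here, so their effects were not tested. Of the array's probes, 34885 had 1 gene symbol in the platform annotation, 18 several and 10378 none. The members, lists and tests were chosen with earlier results of these data known. Genes were named by list membership, brightness, separation, nearness to the threshold, level on ND3 and number of member probes. Roles, testis cell lists, promoter words, the genes given for roles or ratios and the windows shown were chosen after values were seen.

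Replicates are separate mice per the labels. Alternatives covered the threshold and offset of the rule, normalization, background correction, detection filter, array weights, a block for replicate number, the member mean as a covariate and the omission of arrays.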

Additional observations from a re-analysis of the deposited data

How the results depend on the processing

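The choice of members depended on its settings: 150 remained at a separation of 3.0 and 75 at an offset of 64, while omitting any 1 of the 8 arrays of the rule gave 230 to 334, the most without HFD3. The share of members brighter on ND3 than on every low array was 94.8% at a separation of 2.0, 100% at 3.0, 94.1% at an offset of 8 and 100% at an offset of 64, and 92.5% to 97.9% when 1 array was omitted, the lowest without HFD3. The median of HFDM3 minus ND2 reversed to -0.06 on neqc values. No probe met the turned-round rule under any setting run.

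Counts of calls by limma for HFD against ND, HFDM against HFD and the F test moved as follows. Median scaling gave 245, 81 and 136, and a stricter detection filter, which kept 12 members, gave 677, 378 and 423. Without further background correction the latter pair was 76 and 102, and without a filter 106 and 124. The series matrix gave 321 by the F test, and the covariate gave 75 for HFDM against HFD. Array weights gave 1367, 1762 and 2474, with 170 between HFDM and ND, and 1 member called by the F test. Without the 4 high arrays all were 0. Omitting 1 array gave 44 to 313, 13 to 228 and 21 to 229, with 0 to 2 between HFDM and ND. The lowest counts were without HFD2, HFDM1, and HFD2 or HFD3. Each omission but that of ND1 moved at least 1 count by over 1.5 times, and omitting ND1 moved only HFDM against ND, from 0 to 2. No other setting called a member. The largest counts of members with an unadjusted p under 0.05 by limma were for HFDM against HFD. They were 221 of 230 without HFDM2, against 3252 of 20772 probes, and 208 with array weights, against 5972. Omitting HFDM2 left only HFDM arrays that the rule required to be high, so nothing can be read about the members from the first count. Replicate numbers were not shown to pair mice: only 2 of 9 arrays correlated best with one of their own number (r from -0.52 to 0.46). A block for replicate number gave 92, 32 and 28 calls, and 0 between HFDM and ND. The cause of these changes was not tested. Faint members are limited by background: 54 were at the floor on all low arrays, where they have only a bound.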

Other observations

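Several genes of other male organs had a pattern over the arrays unlike that of the sperm genes, while Cst12, a cystatin of the epididymis, was brighter on every high array (5.07 to 8.94) than on every low one (at most 4.49). Svs4, a secreted protein of the seminal vesicle, read 15.98 on ND2 and 13.07 on HFDM2, which was a low array for the members, and at most 6.83 on the other 7 (log2 intensity, not normalized). Svs5 and Pate4, which are also made in male accessory glands, read 14.91 and 14.56 on ND2 and 11.76 and 10.81 on HFDM2. The list for seminal vesicle, prostate and vas deferens had 9 of 16 probes detected on ND2, 7 on HFDM2 and 0 on HFD3. Lcn8, a lipocalin secreted by the epididymis, read 12.64 on ND3 and between 5.09 and 6.13 on the other arrays. Adam7, of the epididymal lining, read 10.13 on ND3, 7.8 on ND1 and 7.53 on HFDM1. Epididymal secreted proteins had 34 of 63 probes detected on ND3 and 10 to 18 elsewhere. Wfdc2 and Lcn2, made by many epithelia, were highest on ND1, at 11.27 and 14.17. The genes in this paragraph were picked after their values were seen, and no test was run on single arrays.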
